A study of Homo sapiens with 16 samples.

Results

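The response of NCI-H929 myeloma cells to 6 h of a p300 degrader was set against their response to a p300 knockout, gene by gene, as the KO effect minus the degrader effect. The contrast was (p300 KO against NTC) minus (degrader against DMSO), taken over 18499 expressed nuclear genes of the 57465 nuclear genes counted, in 14 of the 16 libraries. NCI-H929 is an established human multiple myeloma line, and the labels say that all libraries are of batch 1. The DMSO group (4 libraries) received the solvent, and the degrader group (replicates 1, 3 and 4) received the compound labelled p300 degrader 27 (3 nM, 6 h). The p300 KO group (replicates 2, 3 and 4) was compared with the NTC group (4 libraries), an abbreviation that the labels do not spell out. How the knockout was made, how long the cells had carried it, and whether they are 1 clone or a pool is information not given in the sources used here. Nothing says that replicates were separate cultures either, so a p-value measures only how these libraries spread, and that spread may be technical. The fit shared 1 estimate of spread per gene over all 4 groups, so an SE or p-value does not measure the spread of its own groups alone. Because RNA came from bulk cells, fewer cells of a type and less RNA per cell cannot be told apart.

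The protein p300, encoded by EP300, is a lysine acetyltransferase that is recruited by transcription factors to enhancers and promoters, where it acetylates histones and other proteins. Its paralogue CBP, encoded by CREBBP, shares its catalytic and bromodomain regions and many of its binding sites. In myeloma, p300 and CBP are known as coactivators at the enhancers that keep IRF4 and MYC expressed. A degrader removes the protein within hours by way of the ubiquitin-proteasome system and leaves the gene in place. A knockout removes the source of the protein for as long as the cells carry it.

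Degrader replicate 2 and p300 KO replicate 1 were left out because genes of the mitochondrial genome took 64.9% and 47.7% of their counts. In the libraries used, the mitochondrial share was 13.4 to 23.5% in DMSO, 5.99 to 6.96% with the degrader, 8.91 to 10.3% in NTC and 10.2 to 11.4% in the KO. The share thus moved with the degrader (no overlap with DMSO) and much less with the KO. Between 13.6 M (mega) and 20.7 M nuclear counts were available in each library. Gene levels are given as CPM, counts per M nuclear counts, so that levels of different genes are not per length and are not compared; the limit that a count of 0 allows, 3 counts, is 0.145 to 0.221 CPM in these libraries and covers counting error only. The summed level of 9 plasma cell and myeloma markers was 13552 to 17916 CPM over the libraries used. The highest sums of other lists were 97.7 CPM for NK cell, 59.1 CPM for T cell, 34.2 CPM for earlier B cell, 19.9 CPM for epithelium, 12.9 CPM for monocyte, 1.63 CPM for fibroblast and 1.45 CPM for erythroid markers, and LUM of fibroblasts had no count in any library.

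The 2 control groups did not start from the same levels. The NTC mean was more than 2-fold from the DMSO mean in 4892 genes, or 26.4% of those tested. That share was 34.6% among genes that answered the KO only, 33.6% among genes that moved in opposite directions, 25.5% among degrader-only genes and 19.3% among genes that moved alike. Each effect was therefore measured against its own control, and a difference between effects is a ratio of ratios, on the log2 scale.

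EP300 (chromosome 22, 41091786 to 41180079, plus strand, GRCh38) was read first, as the knocked-out gene. Its transcripts stood at 113, 105, 103 and 107 CPM in NTC libraries 1 to 4 and at 43.2, 38.8 and 42.2 CPM in KO libraries 2 to 4. In the other experiment they stood at 48.3, 61.5, 59.1 and 55.8 CPM in DMSO libraries 1 to 4 and at 68.1, 65.4 and 67.9 CPM in degrader libraries 1, 3 and 4. All 3 KO libraries were below all NTC libraries, with a log2 fold change of -1.37 ± 0.08 (SE), while all degrader libraries were above all DMSO libraries, by 0.26 ± 0.08. Transcript counts do not measure the protein, which is the degrader's target. CREBBP was higher in both experiments, by 0.46 ± 0.08 with the degrader and 0.32 ± 0.07 in the KO, and the difference of -0.14 ± 0.11 (95% interval -0.36 to 0.07) was not called.

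The effects differed in 5974 genes (32.3% of those tested) at a Benjamini-Hochberg adjusted p under 0.05 in edgeR's quasi-likelihood test. The KO effect lay above the degrader effect in 2885 genes (15.6%) and below it in 3089 (16.7%). In 1748 genes (9.45%) the called difference was at least 1 on the log2 scale, and in 1203 it was shown to exceed 0.5 by a test against that minimum. Of the called genes 48.3% were higher, and this share moved to 63.3% higher with scaling by total counts, which shifts the median difference of all genes by 0.11, and to 35.5% higher with no count filter. The degrader effect itself was called in 8099 genes (43.8%) and the KO effect in 5039 (27.2%). With the degrader 4087 genes rose (22.1%) and 4012 fell (21.7%), and in the KO 2228 rose (12%) and 2811 fell (15.2%), the shares beside which the counts of the gene lists stand.

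Each gene was then placed by which effects were called and whether their difference was. Degrader-only genes, with a called degrader effect, no called KO effect and a called difference, numbered 3427, of which 1698 were higher and 1729 lower with the degrader. In 2434 of them the 95% interval of the KO effect also lay within -0.5 to 0.5 log2. KO-only genes, defined the other way round, numbered 1226, with 512 higher and 714 lower, and in 801 the interval of the degrader effect lay within the same limits. Both effects were called with 1 sign in 1647 genes. Their sizes did not differ by the test in 1344 of these (712 higher, 632 lower), and did in 303 (114 higher, 189 lower), where the degrader effect was the larger in 253. In 685 genes both effects were called with opposite signs: 301 fell with the degrader and rose in the KO, and 384 did the reverse. A further 2340 genes were called with the degrader, and 1481 in the KO, without a called difference, so whether these answer 1 perturbation or both is undetermined here. Another 333 had a called difference only, and 7360 had neither a called effect nor a called difference.

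**Figure D1:**
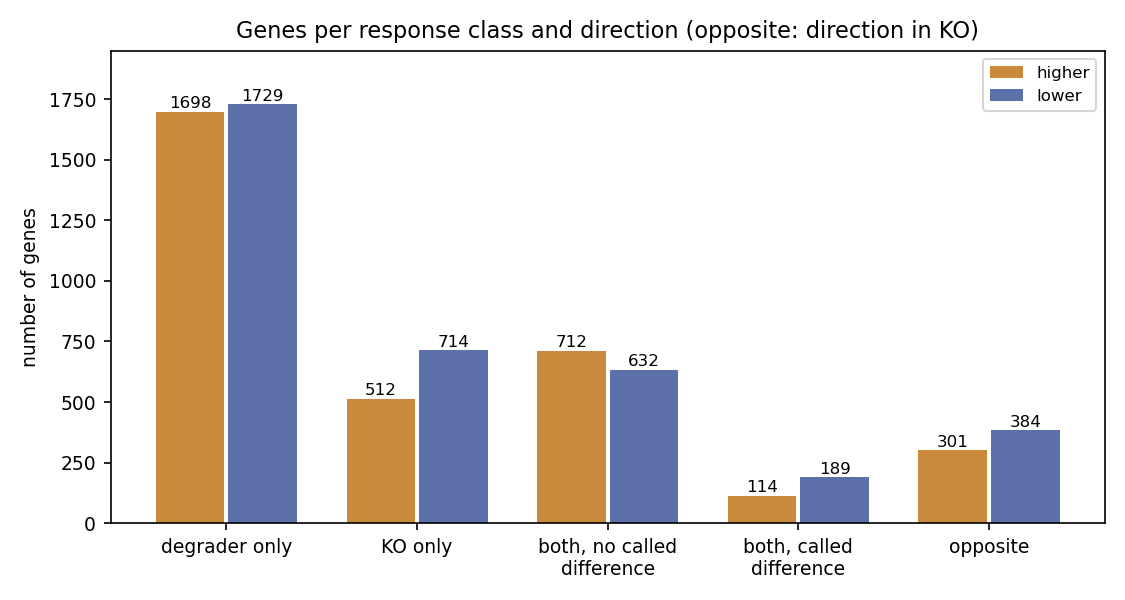
Number of genes (y axis) in each response class (x axis), split into higher and lower; for opposite genes the direction is that in the KO. Degrader-only genes are the most numerous in both directions (1698 and 1729), and 685 genes (301 and 384) moved in opposite directions.

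Of the genes called with the degrader, 28.8% were also called in the KO, and of those called in the KO 46.3% were also called with the degrader. Among the 2332 genes called in both, 70.6% had 1 sign. Across all genes tested the correlation of the 2 effects was weak, with Pearson's r of 0.13 and a Spearman rank correlation of 0.14. Among the 9779 genes with an average log2 CPM of at least 3, r was 0.19 and the rank correlation 0.16. These are across genes, which are not independent replicates, and the effects share no library.

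**Figure D2:**
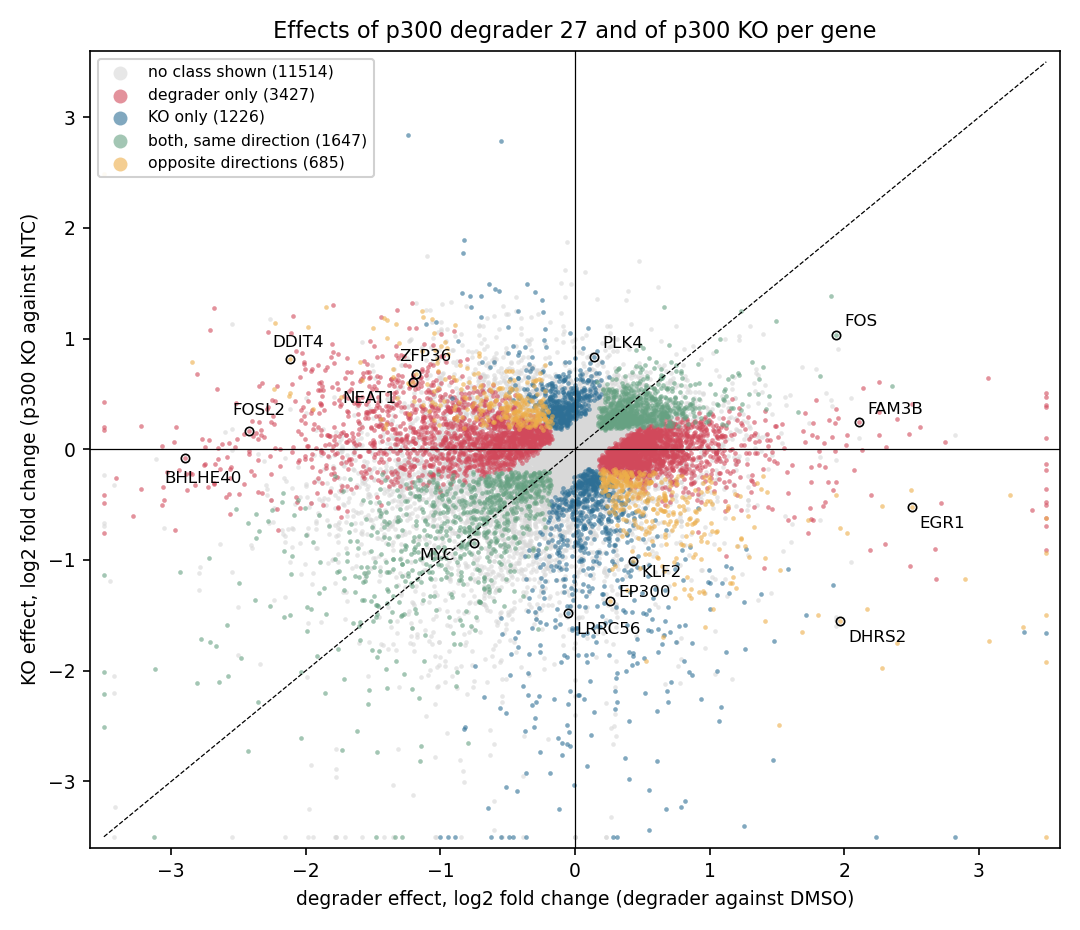
Each point is 1 of 18499 genes, with its degrader effect on the x axis and its KO effect on the y axis (both log2 fold changes), coloured by response class; values past the ends of the axes are drawn at the edge, and the dashed line marks equal effects. Degrader-only genes spread along the horizontal axis and KO-only genes along the vertical one, and DDIT4, ZFP36 and NEAT1 lie on the other side of both axes from EGR1, DHRS2 and KLF2.

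These counts lean on the libraries used. With all 16 libraries, 1158 differences were called, all of them among the 5974 and in the same direction, with 66 opposite genes. With the mitochondrial share as a covariate, 1399 were called, 955 of them kept from the 5974 in the same direction, with 222 opposite genes; 105 of the 685 remained. Since the share does not overlap between DMSO and degrader libraries, its part in the degrader effect and the part of the treatment cannot be told apart beyond the spread within groups. With only the 2 DMSO libraries lowest in mitochondrial counts, 5750 differences were called and 526 of the 685 opposite genes remained.

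DDIT4, ZFP36, NEAT1, MT1E, DMBT1 and IGKJ3 were the genes lower with the degrader and higher in the KO whose smaller effect was largest under the rule for named genes. That rule asked for groups that do not overlap in either experiment. Over all genes tested, degrader and DMSO libraries did not overlap in 41.5%, and KO and NTC libraries in 40.5%. DDIT4 (chromosome 10, 72273920 to 72276036, plus strand) encodes REDD1, an inhibitor of the growth kinase complex mTORC1. Its level was 589, 612, 415 and 545 CPM in DMSO and 132, 126 and 114 CPM with the degrader. In NTC it was 529, 545, 499 and 485 CPM and in the KO 968, 899 and 845 CPM. The controls of both experiments were alike, yet every degrader library was below and every KO library above them. The log2 effects were -2.12 ± 0.10 with the degrader and 0.81 ± 0.09 in the KO, a difference of 2.93 ± 0.14 (edgeR adjusted p = 7.48e-14).

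ZFP36 (chromosome 19, 39406813 to 39409412, plus strand) encodes tristetraprolin, which binds AU-rich elements and speeds the decay of cytokine and immediate early transcripts. DMSO libraries gave 271, 255, 269 and 259.7 CPM and degrader libraries 115, 123 and 111 CPM. NTC libraries gave 182.4, 196, 213 and 189 CPM and KO libraries 324, 331 and 285 CPM. The groups overlapped in neither experiment, which the rule required. The degrader effect of -1.18 ± 0.07 and the KO effect of 0.68 ± 0.07 differed by 1.86 ± 0.10. NEAT1, the long noncoding RNA that builds nuclear paraspeckles, went from 1084, 703, 863 and 943 CPM to 409, 361 and 399.8 CPM with the degrader. In NTC it stood at 879.8, 924, 1047 and 912 CPM and in the KO at 1449.8, 1391 and 1454 CPM. Its difference of 1.81 ± 0.14 was not called with all 16 libraries.

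BTG2, an antiproliferative immediate early gene, and BMF, a BH3-only promoter of apoptosis, had the same form at smaller size. BTG2 fell from 154–189 to 72.6–94.05 CPM with the degrader and rose from 238–274 to 324–359.7 CPM in the KO (ranges over libraries). BMF fell from 43.4–54.7 to 25.4–26.9 CPM and rose from 142–154 to 184–191 CPM, so that all NTC libraries were above all DMSO libraries. The histone deacetylase gene HDAC7 moved mostly in the KO, from 116, 118, 118 and 119.8 CPM to 212, 198 and 189 CPM, against a small fall from 106–119.8 to 91.1–104 CPM with the degrader. ATF5, a transcription factor of the amino acid response, had effects of equal size and opposite sign, -0.55 ± 0.07 with the degrader and 0.56 ± 0.07 in the KO.

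Metallothionein MT1E fell from 18.2, 18.2, 21.98 and 17.4 CPM to 9.19, 9.13 and 9.65 CPM with the degrader and rose from 4.46, 4.08, 4.04 and 3.22 CPM to 7.33, 6.73 and 6.75 CPM in the KO. All KO libraries were still below all DMSO libraries, and NTC started lower. DMBT1, a scavenger receptor gene, had unlike controls, at 1.74 ± 0.422 CPM in DMSO (mean ± SD, n = 4) and 21.6 ± 1.8 CPM in NTC (n = 4). It fell by 2.85 ± 0.35 with the degrader, to levels around the floor of 3 counts, and rose by 0.79 ± 0.09 in the KO. IGKJ3, a joining segment of the immunoglobulin kappa locus, was also among the leading genes, and its counts are uncertain because segments of rearranged loci share reads.

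In the reverse direction, higher with the degrader and lower in the KO, DHRS2 led. DHRS2 (chromosome 14, 23630115 to 23645639, plus strand) encodes a mitochondrial and nuclear dehydrogenase. It read 4.23, 5.77, 3.91 and 3.43 CPM in DMSO and 19.2, 15.6 and 16.5 CPM with the degrader. It read 14.2, 14.6, 19.01 and 16.4 CPM in NTC and 6.1, 5.09 and 5.22 CPM in the KO. The degrader libraries thus reached the NTC range and the KO libraries the DMSO range, and the difference was -3.52 ± 0.20 (edgeR adjusted p = 9.26e-13).

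EGR1 (chromosome 5, 138465490 to 138469315, plus strand), an immediate early zinc finger transcription factor induced through serum response factor, had a larger degrader effect than DHRS2. It went from 5.68, 8.93, 5.61 and 7.25 CPM in DMSO to 39.7, 40.2 and 37.7 CPM with the degrader, a log2 fold change of 2.499 ± 0.12. It went from 22.3, 20.3, 19.5 and 20.2 CPM in NTC to 15.7, 12.4 and 14.99 CPM in the KO, a log2 fold change of -0.52 ± 0.11. The difference was -3.02 ± 0.16 (edgeR adjusted p = 4.49e-13).

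The 250 bases before the start sites of EGR1, ZFP36 and DDIT4 are printed because these 3 immediate early or stress genes moved far in opposite senses, EGR1 up and the other two down with the degrader. The sequences are from RefSeq on GRCh38.p14, plus strand, at chr5:138465229-138465478, chr19:39406597-39406846 and chr10:72273674-72273923. Capitals mark CArG boxes (the site of serum response factor), AP-1 sites (TGANTCA), cyclic AMP response elements (TGACGTCA) and E-boxes (CACGTG), searched on both strands.
EGR1: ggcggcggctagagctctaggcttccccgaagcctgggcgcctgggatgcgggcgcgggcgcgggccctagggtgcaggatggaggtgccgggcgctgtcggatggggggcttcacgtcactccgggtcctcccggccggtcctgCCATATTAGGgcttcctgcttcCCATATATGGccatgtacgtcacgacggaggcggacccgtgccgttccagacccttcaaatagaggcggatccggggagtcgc
ZFP36: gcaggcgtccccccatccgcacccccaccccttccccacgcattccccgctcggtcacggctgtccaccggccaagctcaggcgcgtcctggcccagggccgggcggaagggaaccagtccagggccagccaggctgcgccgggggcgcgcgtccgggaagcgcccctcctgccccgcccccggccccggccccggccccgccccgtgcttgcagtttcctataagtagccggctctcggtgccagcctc
DDIT4: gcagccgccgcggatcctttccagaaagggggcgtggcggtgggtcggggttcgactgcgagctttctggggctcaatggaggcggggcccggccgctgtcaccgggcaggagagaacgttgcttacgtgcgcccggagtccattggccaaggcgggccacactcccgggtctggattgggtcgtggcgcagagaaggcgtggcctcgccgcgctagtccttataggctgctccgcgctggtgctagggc
EGR1 had 2 CArG boxes in this window and no match to the other motifs, and ZFP36 and DDIT4 had no match to any of the 4. FOS, which like EGR1 rose with the degrader, and BTG2, which fell with it, had no match to any of the 4 in their 250 bases either (sequences not printed). Bases outside the window were not searched, so a gene without a match may hold such a site elsewhere. Of the 11927 tested genes with a RefSeq promoter, 1.02% had a CArG box in the same window, 4.13% an AP-1 site, 2.82% a cyclic AMP response element and 8.77% an E-box. A match is a description of letters and not of binding.

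TLNRD1, which encodes an actin-bundling protein, rose from 45.9, 59.97, 46.6 and 60.1 CPM to 113, 108 and 101 CPM with the degrader. It fell from 101, 93.8, 97.2 and 104 CPM in NTC to 60.1, 65.00 and 62.5 CPM in the KO. KLF2, a zinc finger transcription factor of lymphocyte homing, rose from 16.7, 19.6, 20.7 and 18.2 CPM to 25.97, 25.6 and 24.3 CPM with the degrader. It fell from 24.4, 25.4, 22.3 and 20.6 CPM to 12.4, 11.4 and 10.8 CPM in the KO, with effects of 0.43 ± 0.09 and -1.01 ± 0.10. The groups of KLF2 overlapped in neither experiment, and the larger of its effects was that of the KO.

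The immune surface genes FCRL2 and CLEC7A shared this pattern. FCRL2, an Fc receptor-like protein of B cells, rose by 1.42 ± 0.09 with the degrader (30.2–40.6 to 88.3–107 CPM) and fell to 91.99–95.6 CPM from 118–134 CPM in the KO. CLEC7A, the beta-glucan receptor dectin-1, rose from 11.4–14.7 to 18.00–22.3 CPM and fell from 45.6–50.1 to 29.7–31.4 CPM. The myoglobin gene MB rose from 24.7–27.7 to 44.5–49.7 CPM and fell from 285–338 to 144–167 CPM, with NTC far above DMSO. TMEM238 and EEF2KMT, a methyltransferase of translation elongation factor 2, also qualified; neither difference was called with the mitochondrial covariate, nor that of EEF2KMT with all 16 libraries.

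**Figure D3:**
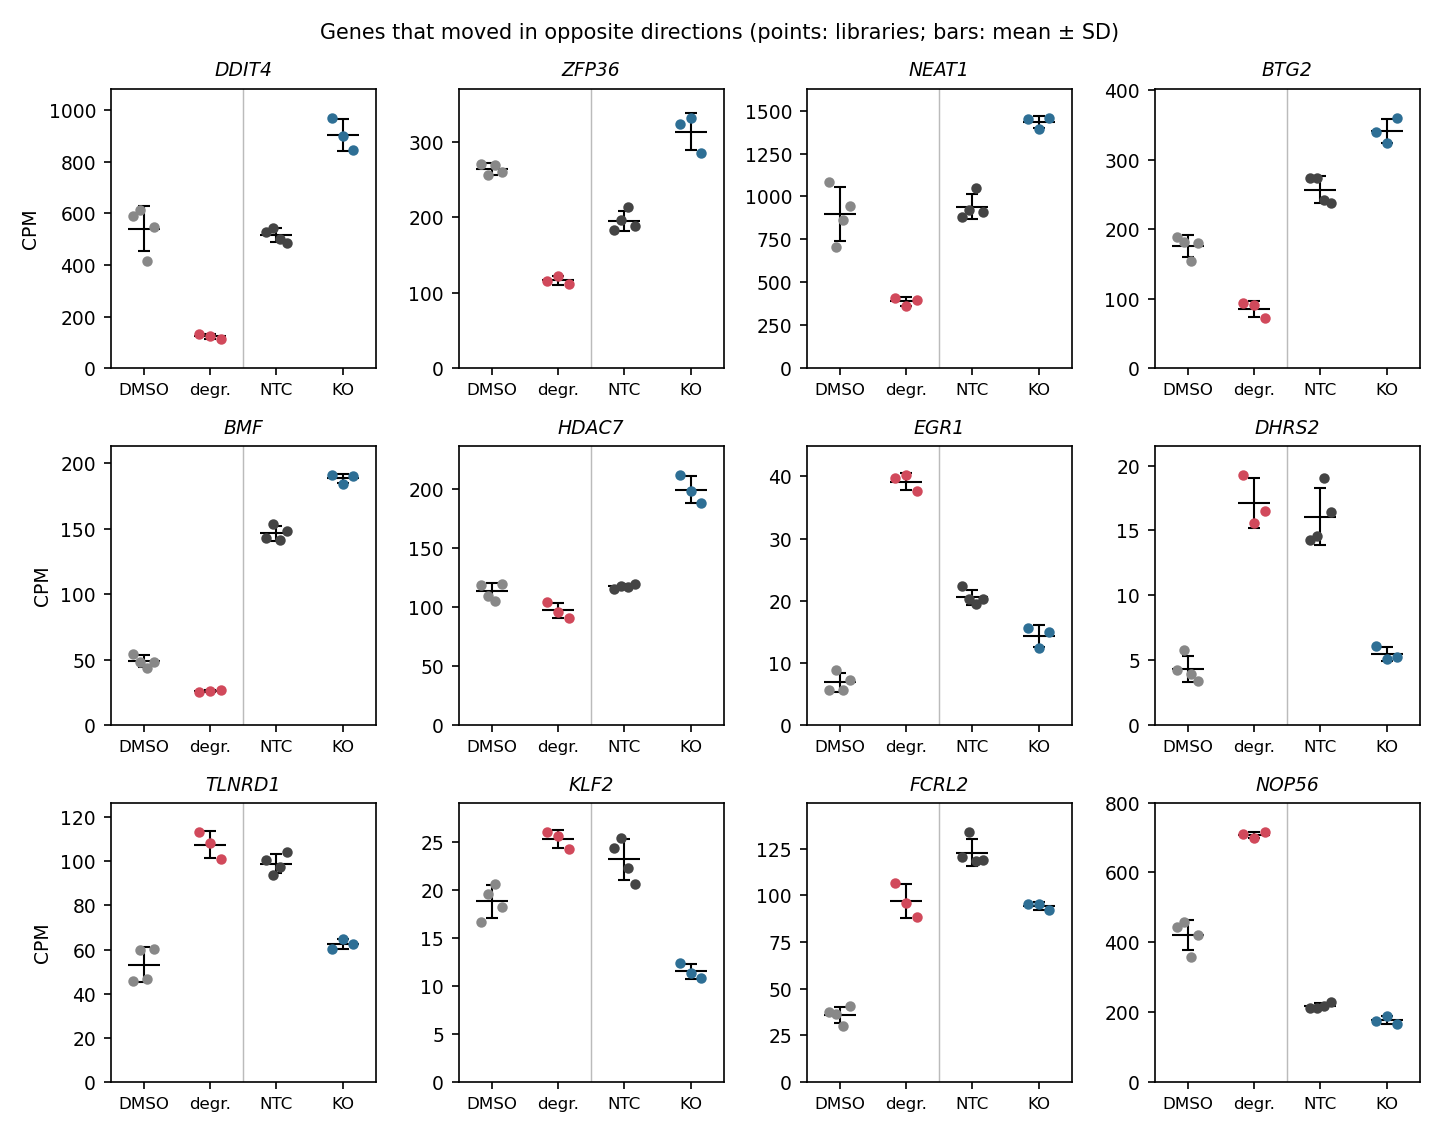
Level in CPM (y axis, from 0) of 12 genes that moved in opposite directions, in each library of DMSO, degrader (degr.), NTC and p300 KO (x axis); points are libraries and bars the mean ± SD. In the first 6 panels the degrader libraries lie below DMSO and the KO libraries above NTC, and in the last 6 the reverse holds.

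BHLHE40, MYL9, IL10, RHOBTB3 and FOSL2 were the leading degrader-only genes that fell. They were picked among those whose KO effect had a 95% interval within 0.5 log2 of no change. BHLHE40 (chromosome 3, 4979116 to 4985323, plus strand) encodes a basic helix-loop-helix repressor tied to the circadian clock and to lymphocyte cytokine control. It fell from 55.9, 63.1, 59.4 and 56.5 CPM to 7.8, 8.58 and 7.25 CPM with the degrader. In NTC it stood at 65.2, 61.5, 56.6 and 45.4 CPM and in the KO at 61.1, 48.5 and 53.3 CPM, ranges that overlap. The degrader effect was -2.90 ± 0.12 and the KO effect -0.07 ± 0.10 with a 95% interval of -0.27 to 0.12. Because of how the gene was picked, a KO effect of the degrader's size had to lie outside that interval. The interval is therefore no separate evidence.

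FOSL2, the AP-1 subunit Fra-2, fell from 38.3, 43.8, 35.9 and 38.6 CPM to 8.33, 6.69 and 6.93 CPM with the degrader. Its NTC libraries stood at 36.1, 34.96, 34.3 and 34.5 CPM and its KO libraries, all above them, at 37.6, 39.03 and 40.7 CPM. The KO effect of 0.16 ± 0.08 had an edgeR adjusted p of 0.129 and a 95% interval of 0.001 to 0.32. RHOBTB3 fell from 29.8–35.6 to 5.44–5.88 CPM and stood at 20.6–22.3 CPM in NTC and 21.5–24.9 CPM in the KO. MYL9, a regulatory light chain of myosin, fell from 47.5–55.1 to 6.45–8.53 CPM, while NTC (11.4–15.6 CPM) and KO (12.1–15.5 CPM) overlapped at a lower start. IL10, the anti-inflammatory cytokine, fell from 4.72–8.96 to 0.73–1.59 CPM, and stood at 43.8–49.2 CPM in NTC and 45.9–51.1 CPM in the KO. BCL3, a nuclear cofactor of NF-kB, fell by 1.74 ± 0.10 with the degrader against a KO effect of 0.15 (95% interval -0.02 to 0.32).

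Among degrader-only genes that rose and met the same limit on the KO effect, FAM3B, which encodes a secreted cytokine-like protein, led. It rose from 8.01, 7.38, 5.31 and 8.63 CPM to 31.8, 29.8 and 33.6 CPM with the degrader. It stood at 15.03, 13.7, 17.01 and 13.5 CPM in NTC and 17.05, 18.2 and 17.4 CPM in the KO, a KO effect of 0.24 ± 0.11 that was not called. RAB34, a small GTPase of membrane traffic, rose from 4.43–6.95 to 21.3–23.4 CPM, and ANXA6, a calcium-dependent membrane-binding annexin, from 6.79–12.6 to 32.8–36.8 CPM. NTC libraries already stood at 22.2–25.7 CPM for RAB34 and 41.6–49.3 CPM for ANXA6, near the degrader level. CTAG2, a cancer-testis antigen, rose by 1.61 ± 0.12 with the degrader and had a KO effect of -0.14 ± 0.11.

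RNF19B, a ubiquitin ligase gene, rose from 5.46, 8.37, 3.47 and 6.65 CPM to 17.1, 18.6 and 17.1 CPM. Its DMSO level was lowest in replicate 3, the DMSO library with the highest mitochondrial share. With that share as a covariate its difference went from -1.31 to 0.11.

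PLK4, FAM161A, MPHOSPH9, C18orf54 and CCDC150 were the leading KO-only genes that rose. They were picked among those whose degrader effect had a 95% interval within 0.5 log2 of no change. Their small degrader effects follow from that choice. PLK4 (chromosome 4, 127880861 to 127899195, plus strand), the kinase that starts centriole duplication, rose from 19.05, 15.96, 17.9 and 16.98 CPM in NTC to 32.1, 27.9 and 33.7 CPM in the KO. It stood at 32.6, 29.5, 34.1 and 29.1 CPM in DMSO and 34.7, 35.1 and 33.5 CPM with the degrader. The NTC libraries were the low group, and 1 KO library lay just below the range of DMSO and the other two within it. The KO effect was 0.84 ± 0.09 and the degrader effect 0.14 ± 0.09 (95% interval -0.04 to 0.31). TOP2A of the mitosis list, the DNA topoisomerase of dividing cells, had the same form, with 231–256 CPM in NTC, 383–409 CPM in the KO, 354–509.7 (DMSO) and 400.3–432 CPM (degrader). FAM161A and MPHOSPH9, both of centrioles or cilia, rose by 0.79 ± 0.14 and 0.79 ± 0.09 in the KO, with degrader effects of -0.05 and 0.20. None of the differences of PLK4, TOP2A, FAM161A, MPHOSPH9, C18orf54 and CCDC150 was called with all 16 libraries or with the mitochondrial covariate.

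KO-only genes that fell included LRRC56 (chromosome 11, 537527 to 554916, plus strand), which takes part in the assembly of ciliary dynein arms. It fell from 58.8, 63.7, 65.6 and 69.4 CPM to 22.2, 23.99 and 22.97 CPM in the KO. It stood at 12.6, 8.12, 9.44 and 10.6 CPM in DMSO and 10.5, 9.43 and 9.45 CPM with the degrader, so that even the KO libraries were above both. The KO effect was -1.48 ± 0.09 and the difference -1.43 ± 0.15 (edgeR adjusted p = 1.05e-07).

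RND3, which lowers actomyosin contraction, fell from 34.6, 33.9, 38.1 and 37.03 CPM to 17.3, 16.7 and 17.9 CPM in the KO. In DMSO it was at 10.8, 12.7, 12.8 and 11.3 CPM and with the degrader at 10.3, 10.95 and 11.2 CPM, groups that overlap. FSTL3, a secreted binder of activin, fell from 18.5–22.2 to 8.29–9.4 CPM in the KO, beside 14.2–17.1 (DMSO) and 11.8–14.95 CPM (degrader). CCND1, the G1 cyclin D1, fell from 104–107 to 63.7–64.5 CPM in the KO and had a degrader effect of -0.12 ± 0.07 that was not called. RABL2A, a small GTPase of cilia, fell by 1.08 ± 0.08, but it shares reads with a near-identical copy and is uncertain; the noncoding RNA MILIP fell as well, and its difference was not called with the mitochondrial covariate.

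**Figure D4:**
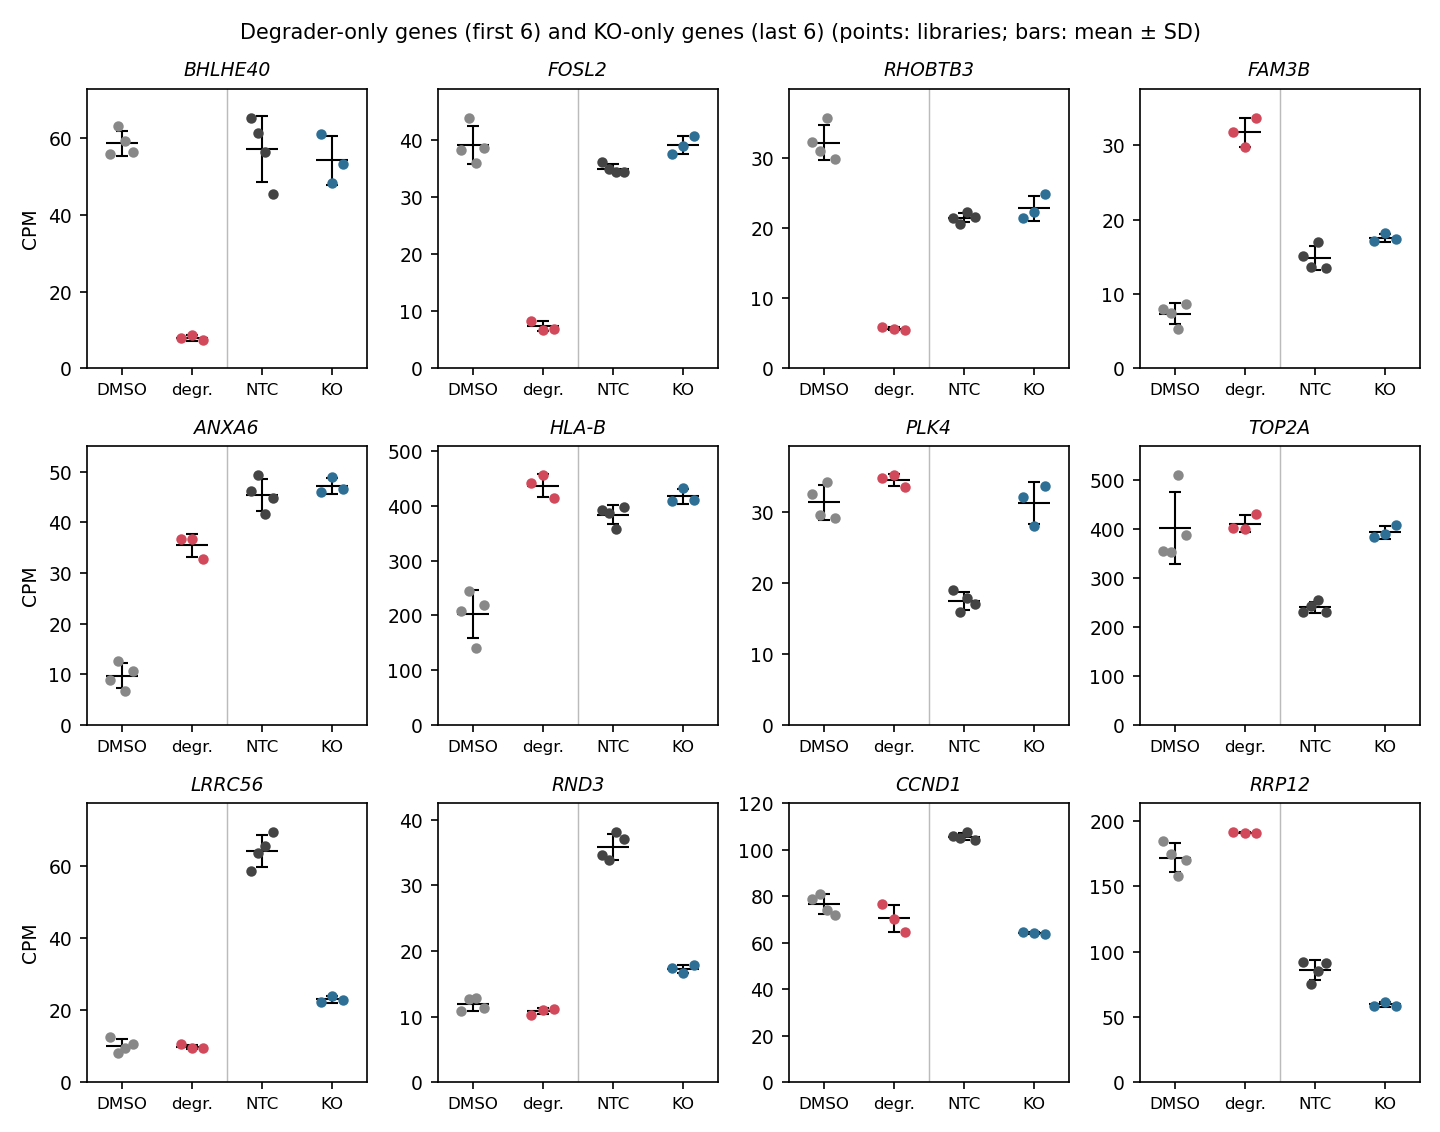
Level in CPM (y axis, from 0) of 6 degrader-only genes (BHLHE40 to HLA-B) and 6 KO-only genes (PLK4 to RRP12) in each library of DMSO, degrader (degr.), NTC and p300 KO (x axis); points are libraries and bars the mean ± SD. BHLHE40, FOSL2 and RHOBTB3 fall and FAM3B, ANXA6 and HLA-B rise with the degrader, with no called KO effect. PLK4 and TOP2A rise and LRRC56, RND3, CCND1 and RRP12 fall in the KO, with no called degrader effect. For FAM3B, FOSL2 and HLA-B all KO libraries still lie above all NTC libraries, and for RRP12 all degrader libraries lie above all DMSO libraries.

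Genes that fell alike after both perturbations included MYC. MYC, a growth-promoting transcription factor, stood at 63.6, 86.1, 44.1 and 68.4 CPM in DMSO and 41.7, 42.4 and 33.1 CPM with the degrader. In NTC it was at 112, 101, 99.04 and 103 CPM and in the KO at 62.8, 54.9 and 55.05 CPM. The effects were -0.75 ± 0.13 and -0.85 ± 0.13, and the difference of -0.10 ± 0.18 had a 95% interval of -0.47 to 0.28. The DMSO libraries with the higher mitochondrial shares (replicates 1 and 3) had the lower MYC levels, and with that share as a covariate the difference was 1.00 and called.

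CD1D, which presents lipid antigens, fell from 5.4–6.39 to 2.59–3.44 CPM with the degrader and from 18.05–21.8 to 7.88–10.7 CPM in the KO. ARID5B, a DNA-binding partner of histone demethylation, fell from 2.83–3.72 to 1.19–1.42 CPM and from 14.4–17.2 to 7.77–8.34 CPM. FAM167A fell by 1.09 ± 0.13 and 1.11 ± 0.11, and the small heat shock protein gene HSPB7 by 1.49 ± 0.23 and 1.01 ± 0.14. SENCR, an antisense noncoding RNA, belonged here too, but the use of strand in counting is not stated and its value is uncertain.

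Genes that rose alike were led by DEPDC1, a mitotic gene, with 27.7–32.4 (DMSO), 48.1–56.3 (degrader), 36.99–41.8 CPM in NTC and 58.4–70.04 CPM in the KO. SGCB, a sarcoglycan, rose by 0.60 ± 0.09 and 0.79 ± 0.08, and the ubiquitin ligase NEDD4 by 0.63 ± 0.14 and 0.63 ± 0.12. CSRNP2, a nuclear protein, rose by 0.64 ± 0.10 and 0.67 ± 0.09. CALHM2, a calcium homeostasis modulator, rose by 0.89 ± 0.13 and 0.59 ± 0.12, and its uncalled difference of -0.30 became a called 0.86 with the mitochondrial covariate.

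Some genes moved the same way to unequal extents. IRF4, a factor of plasma cell identity that myeloma cells need to survive, fell from 521, 589, 517 and 576 CPM in DMSO to 304, 296 and 280.0 CPM with the degrader. It fell from 599, 587, 563 and 558 CPM in NTC to 439.9, 424 and 421 CPM in the KO. The groups did not overlap in either experiment, and the degrader effect of -0.91 ± 0.07 exceeded the KO effect of -0.43 ± 0.07 by a difference of 0.48 ± 0.10 (edgeR adjusted p = 0.000436), which was not called with all 16 libraries. REL, an NF-kB subunit, fell by 2.09 ± 0.14 with the degrader and 0.60 ± 0.15 in the KO, and GADD45B, a stress-response gene, by 1.41 ± 0.07 and 0.57 ± 0.07; the difference of REL was not called with all 16 libraries. FOS, an AP-1 subunit, rose by 1.94 ± 0.16 and 1.04 ± 0.12, and DUSP1, a phosphatase of MAP kinases, by 1.66 ± 0.15 and 0.34 ± 0.11; neither difference was called with all 16 libraries or with the mitochondrial covariate. LUCAT1, a noncoding RNA, fell further with the degrader (-2.17 against -0.40), from a DMSO level of 0.992–2.07 CPM, a difference not called with the mitochondrial covariate. RNVU1-26, a variant U1 RNA, fell further in the KO (-4.34 against -1.29) and is uncertain because of its near-identical copies.

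The immediate early genes, which answer signals without new protein synthesis, were spread over several classes. Of 21 measured, 5 had a higher and 6 a lower called difference, with a median difference of 0.02 beside 0.01 over all genes; RLE size factors gave -0.02. FOSL2, ZFP36, JUN, BTG2 and NR4A1 were the 5 higher, and EGR1, DUSP1, FOS, FOSB, IER5 and JUNB the 6 lower. JUN fell from 45.4–54.1 to 20.6–21.9 CPM with the degrader and rose from 18.2–19.8 to 20.98–24.8 CPM in the KO. FOSB, IER5 and JUNB fell in the KO and had degrader effects of 0.30, 0.10 and -0.15 that were not called. With all 16 libraries (20 genes) and with the mitochondrial covariate 5 were higher and 1 lower.

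Feedback genes of the MAP kinase pathway leaned one way. Of 16 measured, 11 had a lower and 1 a higher called difference, and the median difference was -0.67 (10 to 11 lower when any 1 library was left out). The medians of the effects were 0.16 with the degrader and -0.28 in the KO. DUSP4, a nuclear phosphatase of MAP kinases, rose from 18.7–33.98 to 46.5–51.2 CPM with the degrader, and its KO effect of -0.26 ± 0.10 was not called. The transcription factor ETV4 and the regulator PHLDA1 moved in opposite directions, up by 0.41 and 0.38 with the degrader, with KO effects of -0.34 and -0.32. The exception was DUSP5, a phosphatase of ERK, which fell from 502, 548, 488 and 507 CPM to 266, 249 and 245 CPM with the degrader and stood at 342, 325, 309 and 326 CPM in NTC and 346, 377 and 366 CPM in the KO. With the mitochondrial covariate 4 were lower and 1 higher, and with all 16 libraries 7 of 15 were lower and 1 higher.

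Transcription factors of myeloma leaned the other way. Of 25 measured, 12 had a higher and 5 a lower called difference, with a median of 0.26, which was 0.08 with the length trend removed. With the degrader 17 fell and 4 rose, and in the KO 11 fell and 2 rose. IKZF3, the target of lenalidomide-type drugs, fell from 113–149.6 to 55.7–59.4 CPM with the degrader and from 187–198 to 144–157 CPM in the KO, a smaller fall by 0.74 ± 0.12. RUNX3 fell by 0.68 ± 0.07 with the degrader and rose by 0.23 ± 0.07 in the KO. The 5 with a lower difference were KLF2, SPIB, XBP1, RUNX1 and E2F8. Of these, XBP1, a master factor of secretion, rose from 1161–1546 to 2097–2338 CPM with the degrader. With all 16 libraries 2 were higher and 3 lower, and with the mitochondrial covariate 5 and 1.

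Surface proteins of plasma cells, several of them drug targets in myeloma, had mostly lower differences. Of 25 measured, 11 rose and 5 fell with the degrader, and 2 rose and 13 fell in the KO. Among them, 4 fell and 2 rose in both experiments. The difference was called lower in 11 and higher in 2 (median -0.36). TNFRSF17, which encodes BCMA, fell from 534, 581, 566 and 559 CPM to 379.9, 416 and 399 CPM in the KO and stood at 827, 908, 1022 and 913 CPM in DMSO and 912, 931 and 923 CPM with the degrader. SLAMF7 moved in opposite directions, up by 0.43 ± 0.07 with the degrader and down in the KO with -0.32 ± 0.07. CD38 had a degrader effect of 0.05 ± 0.07 and a KO effect of -0.31 ± 0.07. CCR1 and IL6ST were the 2 with a higher difference. The marker genes of earlier B cells PAX5 and MS4A1 also rose with the degrader and fell in the KO, at levels of no more than 6.51 CPM in any library for PAX5 and 3.75 CPM for MS4A1. With all 16 libraries 4 of 24 surface genes had a lower and 1 a higher difference, and with the mitochondrial covariate 4 and 2.

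Genes of ribosome assembly had lower differences without exception among those called. Of 28 measured, 22 fell in the KO and none rose, while 6 rose and 2 fell with the degrader. The difference was called lower in 16 and higher in none, with a median of -0.34 (12 to 20 lower when any 1 library was left out). RRP12, a factor of ribosomal RNA processing, fell from 92.2, 75.5, 85.3 and 91.1 CPM in NTC to 58.7, 61.7 and 58.1 CPM in the KO. It stood at 185, 175, 158 and 169.9 CPM in DMSO and 191, 191 and 191 CPM with the degrader. NOP56, a core protein of box C/D small nucleolar particles, moved in opposite directions, from 445, 458, 359 and 422 CPM to 709, 699 and 714 CPM with the degrader and from 211, 212, 218 and 229.8 CPM to 174, 189 and 167 CPM in the KO. With the mitochondrial covariate 7 were lower, and with all 16 libraries 2.

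Purine and pyrimidine synthesis genes split in like manner, with 12 of 22 lower in the difference and none higher (median -0.32). With the degrader 11 rose and 2 fell, and in the KO 2 rose and 6 fell. CTPS1, PRPS1, ADSL and ATIC moved in opposite directions, and CTPS1, the CTP synthase of proliferating lymphocytes, went from 78.04–108 to 129.6–145 CPM with the degrader and from 65.9–76.3 to 55.4–58.97 CPM in the KO. With the mitochondrial covariate or all 16 libraries no member of this list had a called difference. Of 59 cytosolic ribosomal protein genes, 16 rose and 5 fell with the degrader and none was called in the KO; 13 had a lower difference and none a higher one, with a median of -0.08, while scaling by total counts gave 11 lower, 5 higher and a median of 0.03. Of 39 nuclear genes of oxidative phosphorylation, 13 had a lower and 1 a higher difference (7 and 3 with total counts, 4 and 5 with the mitochondrial covariate), and 19 rose with the degrader against 3 in the KO. All of those calls were lost with all 16 libraries for both lists. Over all genes in the highest of 5 equal bins by expression, 29.8% had a lower and 15.6% a higher called difference.

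The unfolded protein response and sterol lists held 11 and 10 degrader-only genes, a class that made up 18.5% of all genes tested. Of 22 unfolded protein response genes, 16 rose and 2 fell with the degrader, and none rose and 1 fell in the KO. The difference was called lower in 10 and higher in 2 (median -0.26). PDIA4, a protein disulfide isomerase, went from 426, 506, 417 and 460.2 CPM to 729.8, 763 and 689 CPM with the degrader. It stood at 403, 385, 378 and 403 CPM in NTC and 405, 397 and 398 CPM in the KO, a KO effect of 0.03 ± 0.07, and its difference was not called with all 16 libraries or with the mitochondrial covariate. HERPUD1 and ERN1 were the 2 higher ones. Of 25 cholesterol synthesis genes, 18 rose with the degrader, 7 rose in the KO and 11 had a lower difference, with none higher (median -0.28). TM7SF2, a sterol reductase, rose from 22.2–28.5 to 57.96–62.6 CPM and stood at 59.4–68.1 CPM in NTC and 64.7–68.1 CPM in the KO. The degrader libraries of TM7SF2 overlapped NTC and lay below all KO libraries, and DMSO was the low group. With the mitochondrial covariate the unfolded protein response genes had 3 higher and none lower, and the cholesterol genes 2 lower with a median of 0.07; with all 16 libraries they had 1 and 3 lower.

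MHC class I genes, which display peptides to T cells, were of the same kind. Of 15 measured, 11 rose and 2 fell with the degrader, and 3 rose and 2 fell in the KO. The difference was lower in 10 and higher in 2 (median -0.47). HLA-B went from 208, 244, 141 and 219 CPM to 441, 455 and 414 CPM with the degrader and stood at 393, 387, 358 and 398 CPM in NTC and 409, 433 and 409.6 CPM in the KO. Reads of the HLA genes can be split among similar copies, and their values are uncertain on that account. DMSO replicate 3, with the highest mitochondrial share, had the lowest HLA-B level. With the mitochondrial covariate 1 member was higher, none lower and the median 0.01, and with all 16 libraries none was called. ERAP2 and NLRC5, the 2 higher ones, fell with the degrader.

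Among targets of hypoxia-inducible factor and clock genes, more differences were called higher than lower. Of 29 hypoxia targets, 12 were higher and 3 lower in the difference (median 0.14), 5 of them in opposite directions. These 5 were DDIT4, KDM3A, PFKFB4, KDM4B and BNIP3L. KDM3A, a histone demethylase, fell from 40.9–43.8 to 20.3–23.9 CPM with the degrader and rose from 57.3–71.01 to 74.3–79.5 CPM in the KO. PFKFB4, a switch enzyme of glycolysis, fell from 16.01–19.2 to 2.91–4.73 CPM, with NTC at 14.4–27.9 and KO at 22.7–34.1 CPM, which overlap. The 3 lower ones, ALDOC, ENO1 and PGK1, are glycolytic enzymes and rose with the degrader. Of 17 clock genes, 8 were higher and 1 lower (median 0.33); CRY1, the lower one, rose by 1.04 ± 0.12 with the degrader, and PER1, PER2, NR1D2, CLOCK and RORA fell with it. Leaving out 1 library took the higher clock genes to between 3 and 8. With all 16 libraries 4 hypoxia targets and 1 clock gene were higher, and with the mitochondrial covariate 8 and 3. No member of either list was lower under these settings, so the difference of CRY1 was not called.

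Of 28 interferon-stimulated genes, 8 had a higher and 6 a lower called difference, with a median of 0.51 that turned to -0.13 among the 16 with a mean of at least 50 counts (5 higher, 6 lower). All 16 libraries gave 7 higher and 3 lower, and the mitochondrial covariate 6 and 2. IRF7, a transcription factor of interferon induction, fell from 114, 105, 112 and 106 CPM to 55.2, 51.6 and 55.8 CPM with the degrader and went from 68.2, 63.1, 69.3 and 66.8 CPM to 80.3, 84.4 and 68.2 CPM in the KO, where the groups overlap. OAS1, a sensor of double-stranded RNA, did the reverse, from 7.87, 9.36, 9.51 and 12.98 CPM to 26.7, 23.5 and 25.9 CPM and from 51.9, 52.9, 51.9 and 50.6 CPM to 42.6, 41.9 and 41.4 CPM. STAT2 and IRF9, partners in the interferon response complex, fell with the degrader (-0.51 and -0.58) and rose in the KO (0.41 and 0.44).

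In the cell cycle lists, more genes rose than fell in each experiment. Of 31 S phase genes, 24 rose with the degrader and 18 in the KO, and 23 had no called difference, 2 a higher and 6 a lower one (5 and 4 with total counts). Of 30 mitosis genes, 18 rose with the degrader and 23 in the KO, with 6 higher and 5 lower in the difference (8 and 4 with total counts, 5 and 8 with no count filter). TOP2A, CDK1, UBE2C, BUB1B, ECT2 and PTTG1 were the 6 higher, and PLK1, TPX2, BIRC5, KIF23 and MKI67 the 5 lower. POLE, the catalytic subunit of a replicative DNA polymerase, fell by 0.25 ± 0.09 with the degrader and rose by 0.44 ± 0.09 in the KO. MCM2, of the replicative helicase, had a difference of -0.68 that turned to 0.12 with the mitochondrial covariate. Leaving out 1 library took the lower S phase genes to between 4 and 14. No S phase gene and 1 mitosis gene (higher) had a called difference with the mitochondrial covariate; with all 16 libraries S phase had 1 higher and 1 lower, and mitosis 3 higher and none lower.

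The remaining lists follow by their counts. Among 17 acetyltransferases and bromodomain readers 3 were higher and 5 lower, EP300 among the lower, and among 15 histone deacetylases 4 were higher (HDAC7, HDAC10, SIRT7 and HDAC6) and 1 lower (HDAC9). NF-kB targets had 6 higher and 5 lower of 23, p53 targets 7 and 7 of 29, ATF4 and amino acid genes 9 and 7 of 27, and BCL2 family genes 3 and 6 of 17. PLK2, a stress-induced polo-like kinase among the p53 targets, moved in opposite directions, from 0.856–2.36 to 2.59–3.35 CPM with the degrader and from 6.81–8.53 to 2.32–3.22 CPM in the KO. MCL1, an anti-apoptotic protein on which myeloma cells rely, fell by 0.52 ± 0.08 with the degrader against a KO effect of 0.07 ± 0.08, and its difference was not called with all 16 libraries. Heat shock genes had 2 higher and 5 lower of 17, splicing factors and CLK kinases 5 and 6 of 19, genes of elongation 6 and 3 of 19, D cyclins and CDK inhibitors 3 and 5 of 15, KLF factors 1 and 2 of 12, MHC class II genes 2 and 0 of 9, and replication-dependent histone genes 6 and 4 of 24 (2 and 5 with no count filter), with a median difference of 0.42. Histone genes share near-identical copies and are uncertain. In each list of this paragraph fewer members were called with all 16 libraries, and also with the mitochondrial covariate. With all 16 libraries NF-kB and p53 targets each had 2 higher and 1 lower. ATF4 genes had 6 and 0 there, and BCL2 genes 1 and 0. The covariate gave 4 and 1, 5 and 2, 3 and 1, and 2 and 0 for these in turn. Acetyltransferases had 1 lower under each setting. Elongation and histone genes had none with all 16 libraries and 1 lower each with the covariate.

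**Figure D5:**
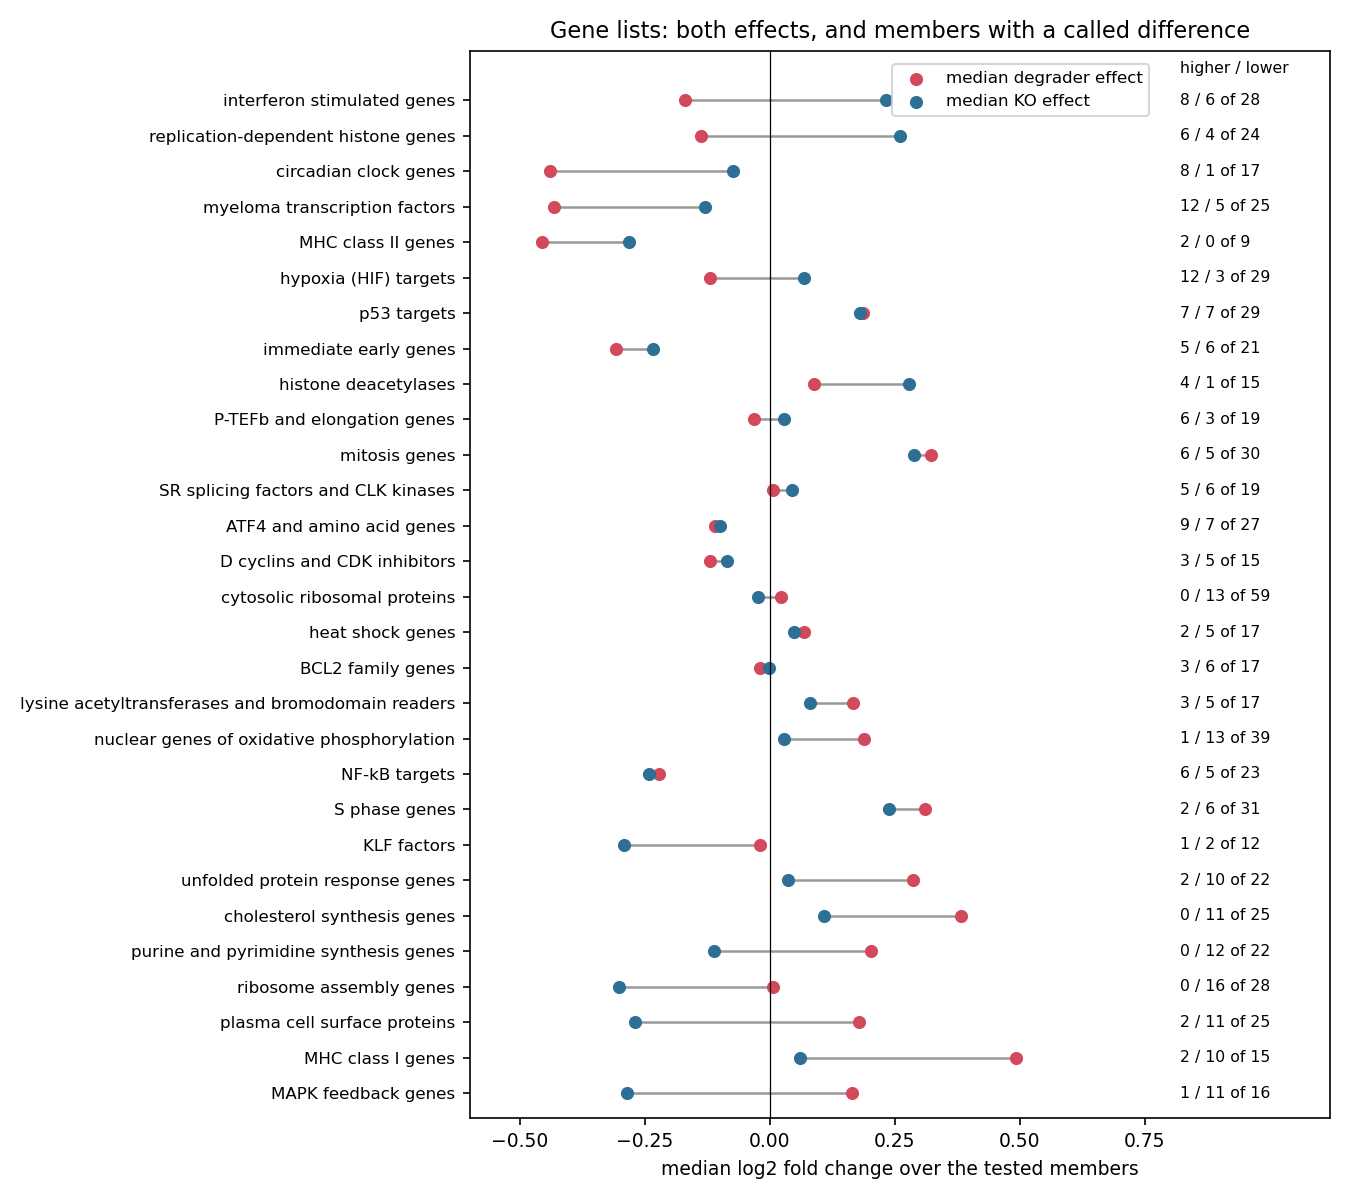
Median log2 fold change (x axis) with the degrader and in the KO over the tested members of 29 gene lists (y axis, ordered by median difference); numbers at the right give members with a called higher or lower difference. MAPK feedback genes, MHC class I genes, plasma cell surface proteins and ribosome assembly genes have the lowest median differences (-0.67, -0.47, -0.36 and -0.34), and interferon stimulated genes, histone genes and clock genes the highest (0.51, 0.42 and 0.33).

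The classes also differed in length, gene type and level, which their definition did not name. Calls were more frequent at higher levels, as given below, so these features are not independent of the definition. The median summed length of a gene's exons was 6742 bases in KO-only genes that rose and 3161 bases in those that fell, against 3946 bases over all genes tested. Opposite genes that rose in the KO had a median of 6109 bases and those that fell in it 3345 bases. Protein-coding genes made up 95.5% of degrader-only genes that rose and 61.4% of those that fell, beside 72.8% of all genes tested. The split was similar in KO-only genes (89.8% and 68.5%) and in genes that moved alike with no called difference (98.6% and 67.7%). Among opposite genes the shares were 76.7% for those that rose in the KO and 88.3% for those that fell in it. Degrader-only genes that rose had a median average log2 CPM of 5.52, and those that fell 3.04. The shortest of 5 equal bins of genes, up to 1604 bases, had a median degrader effect of -0.39 and a median KO effect of -0.10. Removing the trend of each library with length before the fit left 5679 called differences, and 496 of the 685 opposite genes remained. The share of genes with a called difference rose with expression, from 14.4% in the lowest of 5 equal bins to 45.4% in the highest. In the lowest bin 9.54% were called higher and 4.89% lower, and in the highest 15.6% and 29.8%. By chromosome, the median difference lay between -0.05 and 0.12.

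In the promoter window, the CCAAT box (CCAAT) was held by 43.4% of genes that rose alike and by 28.5% of those that fell alike, beside 34.9% of all tested genes with a promoter. CArG boxes were in 1.46% of opposite genes that rose in the KO and 0.712% of those that fell in it. AP-1 sites were in 1.94% of opposite genes that rose in the KO and 5.34% of those that fell in it. Over all tested genes with a promoter the shares were 1.02% for CArG boxes and 4.13% for AP-1 sites. These shares are descriptions, with 206 and 281 opposite genes that had a promoter sequence. Those of CArG boxes rest on very few genes and those of AP-1 sites on few, and no difference between classes was tested.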

How the data were processed

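Gene counts of bulk RNA sequencing were deposited by the authors as 1 table of integer counts per library, covering 57500 genes. The tools named per the submitters' processing notes are STAR 2.5.2b, Trimmomatic 0.36, Subread 1.5.2 with featureCounts, and DESeq2 1.16.1, and the build is GRCh38. Whether counting used strand, how multi-mapped reads were treated and which annotation release served is not stated there, which leaves antisense, overlapping and near-identical genes uncertain. Of the gene identifiers, 56898 were in GENCODE 29, 54773 of them (96.3%) at the same position. The authors' counts were used as deposited.

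Here, 35 mitochondrial genes were dropped before library sizes were taken, genes were kept by filterByExpr, and libraries were scaled with TMM. The 14 libraries were fitted by group in 1 edgeR 4.0.16 quasi-likelihood model in R 4.3.3, and 3 contrasts were tested (degrader effect, KO effect, KO effect minus degrader effect), each adjusted over all 18499 genes by Benjamini-Hochberg and called under 0.05. An SE is the absolute log2 fold change divided by the square root of F. The error of a gene was pooled over all groups, also where their spreads differed. For UQCRFS1 the SD was 28.0 CPM in DMSO and 3.88 CPM in the KO, yet both effects had an SE of 0.15. CPM values are nuclear counts scaled over the 14 libraries. Groups came from the labels. The script was tested on simulated data. No 2 libraries were identical.

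The rule for named genes takes EP300, CREBBP, IRF4 and MYC. It adds the largest effects of each class and direction whose average log2 CPM is 3 or more and whose groups do not overlap (5 per direction in classes with 1 effect or equal effects, 6 for opposite genes, 2 for unequal ones), and the 2 members of each list with the smallest p. For the largest effects of degrader-only and KO-only genes, the 95% interval of the other effect also had to lie within 0.5 log2 of no change. Opposite and equal genes were ranked by the smaller absolute effect, and unequal ones by the difference. It named 101 genes; other list members were named because 5 or fewer were called in a direction, or were chosen after their values were seen. The comparison, members, lists and rules were chosen with earlier results of these data known. Alternatives were DESeq2 1.42.0, limma-voom (limma 3.58.1), other scalings and filters, left-out or restored libraries, a mitochondrial covariate, a length trend and replicate numbers; the fit on the 2 DMSO libraries lowest in mitochondrial counts was chosen after seeing the data. Promoter windows were matched by gene symbol to RefSeq on GRCh38.p14.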

Additional observations from a re-analysis of the deposited data

Results flagged for a closer look

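Single libraries stood apart from the rest of their group of 4 in 7 of 202 checks of named genes, beside about 1 in 20 expected by chance. In DMSO replicate 3, the DMSO library with the highest mitochondrial share, FOS was at 2.80 CPM (others 3.53 to 3.64), CRY1 at 5.61 CPM (others 8.68 to 9.18) and BCL3 at 35.5 CPM (others 39.8 to 40.2). In DMSO replicate 4, CD1D was at 5.40 CPM (others 6.34 to 6.39). In NTC replicate 2, NEDD4 was at 6.37 CPM (others 8.63 to 8.98) and FCRL2 at 134 CPM (others 118 to 121). In NTC replicate 3, H2AC6 was at 25.5 CPM (others 28.7 to 29.1).

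In the 2 libraries left out, the mitochondrial genome took far more of the counts than in any control library. It took 64.9% in degrader replicate 2, against 13.4 to 23.5% in DMSO, and 47.7% in p300 KO replicate 1, against 8.91 to 10.3% in NTC.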

How the results depend on the processing

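All 16 libraries gave 1158 called differences (508 higher, 650 lower), 636 degrader-only, 301 KO-only and 66 opposite genes and 297 that moved the same way. The mitochondrial covariate gave 1399 (753 higher, 646 lower), 545, 504, 222 and 590. With it, RNF19B moved to 0.11, MCM2 to 0.12, H2BC12 to 0.13, UQCRFS1 to 0.41, CALHM2 to 0.86 and MYC to 1.00, each reversed in sign. Fits on the 7 libraries of each experiment, where the error was not pooled over both, gave 2282 degrader-only, 1344 KO-only, 894 opposite and 1902 same-way genes. A tested minimum of 0.5 left 1203 differences. Leaving out 1 library gave 4915 to 6773 called differences (2160 to 3114 higher, 2572 to 3659 lower), 2770 to 3831 degrader-only, 855 to 1404 KO-only, 415 to 905 opposite and 1190 to 2097 same-way genes; opposite genes were 415 without KO replicate 2 and 442 without KO replicate 4. The replicate block gave 5620 called differences and 536 opposite genes. Same-numbered libraries correlated between -0.05 and 0.01 and differently numbered ones between -0.15 and 0.16. No shared effect of the replicate number was seen, and not every sample correlated best with its own number. With so few pairs, this cannot show whether the numbers pair samples. Of 89 named genes with a called difference, 52 kept it with all 16 libraries and 50 with the covariate. Under the other settings HLA-DOB was the gene that lost its call, and CCDC150 lost it with the 2 DMSO libraries lowest in mitochondrial counts and without degrader replicate 1. At 3 degrader and 3 KO libraries of 16.7 M to 19.6 M nuclear counts each, the median SE of a difference was 0.18 log2 and a difference near its SE was not resolved.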
